A study of Mus musculus with 18 samples.

Results

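The interferon-induced transmembrane genes Ifitm1, Ifitm2, Ifitm3, Ifitm5 and Ifitm6 were followed across the bone marrow of 18 mice. Members were chosen by name: every probeset annotated to 1 member symbol and to no other gene was taken, which gave 1 probeset for each gene, 5 of the 45101 probesets on the array and 5 of the 18194 genes with such a probeset. All 5 passed the filter on low values and so were among the 14505 genes tested. The probesets are 1424254_at for Ifitm1, 1417460_at for Ifitm2, 1423754_at for Ifitm3, 1440216_at for Ifitm5 and 1440865_at for Ifitm6.

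All animals were on the C57Bl6 background, and total RNA of flash-frozen marrow cells was measured on 1 Affymetrix array per mouse. The groups were 6 CCAT2-GT mice, 4 CCAT2-G mice, 4 CCAT2-T mice and 4 wild-type (WT) mice. CCAT2 is a human long non-coding RNA, and G and T name the alleles of a single-base variant within it. The labels describe mice that overexpress CCAT2-G or CCAT2-T throughout the body, call the CCAT2-GT mice DRAI+ and pool the CCAT2-G and CCAT2-T mice, 8 in number, as DRAI-, without spelling out DRAI. WT mice carry no DRAI status. In the mouse identifiers CCAT2-GT replicates 1 to 3 have the letter G and replicates 4 to 6 the letter T, which the labels do not explain. The sources used here do not give the promoter of the transgene, the number of founder lines or the ages. By its title the study is about myeloid malignancies. The comparisons set DRAI+, DRAI- and WT marrow against each other, and the T allele against the G allele.

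IFITM proteins are small membrane proteins. Several of them stop enveloped viruses from fusing with the cell: Ifitm3 acts mainly at endosomes and lysosomes, Ifitm2 is its close relative in the same compartments, and Ifitm1 lies more at the cell surface, where in human B cells it joins a complex with the tetraspanin CD81. These genes respond to interferon, whose receptors switch on transcription factors, Stat2 and Irf9 among them, that bind the interferon-stimulated response element of their targets. Ifitm5 is the odd member: it is known from osteoblasts, where it takes part in bone mineralisation and binds the chaperone Fkbp11. Ifitm6 lies in the same cluster of genes on mouse chromosome 7 and is less studied.

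The start regions are shown because the response element is the feature through which the members that respond to interferon are known to be induced. Sequences are those of RefSeq on GRCm38.p6 and all 5 genes matched. The window ran from 250 bases before the annotated start to 50 bases after it, and the letters searched were GAAANNGAAA, on both strands. Capitals mark a match. The first line for Ifitm3 and the lines for Ifitm2 and Ifitm1 are the 250 bases before the start. The second line for Ifitm3 holds the first 30 transcribed bases, where both of its matches lie.
Ifitm3, upstream, chr7:141010745-141010994, minus strand: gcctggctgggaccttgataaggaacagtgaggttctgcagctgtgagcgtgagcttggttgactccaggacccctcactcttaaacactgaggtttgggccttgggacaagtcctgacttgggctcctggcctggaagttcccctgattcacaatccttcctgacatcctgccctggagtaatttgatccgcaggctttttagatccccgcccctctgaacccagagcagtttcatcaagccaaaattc
Ifitm3, start, chr7:141010715-141010744, minus strand: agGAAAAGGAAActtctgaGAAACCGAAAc
Ifitm2, upstream, chr7:140955962-140956211, minus strand: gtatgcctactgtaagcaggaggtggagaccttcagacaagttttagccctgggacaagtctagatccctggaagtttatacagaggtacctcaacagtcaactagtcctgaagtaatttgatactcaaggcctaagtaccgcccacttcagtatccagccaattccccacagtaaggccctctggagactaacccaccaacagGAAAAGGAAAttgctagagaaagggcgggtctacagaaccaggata
Ifitm1, upstream, chr7:140967826-140968075, plus strand: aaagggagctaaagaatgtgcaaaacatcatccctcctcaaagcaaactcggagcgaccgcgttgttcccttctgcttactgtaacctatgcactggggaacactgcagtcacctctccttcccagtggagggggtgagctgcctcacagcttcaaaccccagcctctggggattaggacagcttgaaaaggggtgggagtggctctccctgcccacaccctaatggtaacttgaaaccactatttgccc

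The window of Ifitm3 held 2 matches, at bases 3 and 20 counted from 1 at the start, and that of Ifitm2 held 1, which began 46 bases before the start. The 10 letters of the Ifitm2 match and of the first Ifitm3 match were the same. The windows of Ifitm1, Ifitm5 and Ifitm6 held no match, which says only that these letters are not in those 300 bases. Of 27025 mouse promoters of this length, 943 (3.49%) held at least 1 match and 68 (0.252%) held 2 or more. The motif TTCNNNGAA, which reads the same on both strands and is known as the interferon-gamma activated sequence, was found at base 14 of Ifitm3, where it overlaps the second match, and 10 bases before the start of Ifitm6, against 2288 (8.47%) of all promoters. A match is a description of letters, not a site of binding.

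Some arrays stood apart for reasons outside the labels, and the values of Ifitm1, Ifitm2 and Ifitm3 against WT mice are given with and without them. The interquartile range was below 3.1 on 5 arrays (CCAT2-G replicate 1, CCAT2-T replicates 1 and 2, WT replicates 1 and 2) and above it on the other 13, and no DRAI+ mouse is among the 5. Xist, expressed from the inactive X chromosome of females, was above 10.7 in CCAT2-GT replicates 2, 3 and 5 and CCAT2-T replicate 3 and at most 4.05 elsewhere, and bone and stroma genes were highest in CCAT2-GT replicates 4 and 6 and WT replicate 4. The marrow label fits its markers: the neutrophil gene S100a8 ran from 13.6 to 13.9, the granule enzyme Mpo from 11.2 to 12.9 and the erythroid factor Klf1 from 9.43 to 10.8. Each member's level below is a log2 value of its own probeset, and levels of different probesets are not set against each other. The members resemble each other in sequence, and how far a probeset also binds the RNA of another member was not tested.

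Ifitm3, the endosomal antiviral member, was higher in most DRAI+ mice than in WT mice, but the difference did not pass the test across all genes. In the 6 CCAT2-GT mice its lowest, median and highest levels were 10.52, 11.43 and 11.72. It was at 10.67, 10.76, 11.55 and 11.32 in CCAT2-G mice, at 10.68, 10.90, 11.24 and 11.24 in CCAT2-T mice, and at 10.54, 11.15, 10.87 and 10.32 in WT mice. Of the 6 CCAT2-GT mice, 5 lay above the highest WT mouse, while the sixth, replicate 6, lay among the lowest of all, so the groups overlapped. Means were 11.33 ± 0.42 (SD, n = 6) in DRAI+ mice and 10.72 ± 0.37 (SD, n = 4) in WT mice, a difference of 0.60 (SE 0.22, 95% confidence interval 0.14 to 1.07), or 1.52-fold. The unadjusted p from limma was 0.0131 and the adjusted p over 14505 genes was 1.00. An exact permutation test over the mice, two-sided, gave p = 0.0619. The difference was 0.73 among the 13 arrays of wider spread, 0.49 with the 5 narrow arrays as a separate block, 0.53 without the Xist-high arrays and 0.58 without the 3 arrays rich in bone and stroma genes. Only 0.517% of genes had a smaller p in this comparison. In bulk marrow, fewer cells of a type and less RNA per cell cannot be told apart.

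In DRAI- mice Ifitm3 averaged 11.04 ± 0.33 (SD, n = 8), which was 0.32 (SE 0.21) above WT mice (limma, unadjusted p = 0.144). DRAI+ mice lay 0.28 (SE 0.18) above DRAI- mice (limma, unadjusted p = 0.140, adjusted p = 0.586). DRAI- minus WT was 0.19 without WT replicate 4, which equals the value without the bone and stroma rich arrays, 0.05 with limma's array weights, 0.29 without the Xist-high arrays and 0.62 among the 13 arrays of wider spread. Among those 13 arrays DRAI+ minus DRAI- was 0.11. Within the 5 narrow arrays 3 DRAI- mice minus 2 WT mice gave -0.10. CCAT2-T and CCAT2-G mice averaged 11.01 ± 0.27 and 11.07 ± 0.43 (SD, n = 4 each), a difference of -0.06 with a 95% confidence interval from -0.58 to 0.46. The order of the group means was therefore CCAT2-GT, CCAT2-G, CCAT2-T and WT, and neighbouring means differed by less than the larger of their SDs.

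Ifitm2, the other endosomal member, had its highest value in a DRAI- mouse. It was at 9.34, 9.63 and 10.20 (lowest, median and highest) in CCAT2-GT mice. The CCAT2-G mice had 9.61, 9.93, 10.43 and 10.17, the CCAT2-T mice 9.96, 9.84, 9.47 and 10.05, and the WT mice 9.60, 9.80, 9.65 and 9.26. Of the 8 DRAI- mice, 6 lay above the highest WT mouse, as did 2 of the 6 DRAI+ mice, and the groups overlapped throughout. DRAI- mice averaged 9.93 ± 0.30 (SD, n = 8) and WT mice 9.58 ± 0.23 (SD, n = 4), a difference of 0.36 (SE 0.18; limma, unadjusted p = 0.0595). It was 0.56 among the 13 arrays of wider spread, 0.42 without the Xist-high arrays, 0.25 without the bone and stroma rich arrays and 0.20 with array weights. DRAI+ mice were higher than WT by 0.15 (SE 0.19) and differed from DRAI- mice by -0.21 (SE 0.16; limma, unadjusted p = 0.194).

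Ifitm1, the member of the cell surface, had the largest difference of the family between DRAI+ and WT mice, and also the largest spread. In CCAT2-GT mice it was at 9.21, 9.66 and 10.58 (lowest, median and highest). It was at 8.79, 9.50, 11.07 and 10.05 in CCAT2-G mice, at 9.44, 9.52, 9.22 and 8.96 in CCAT2-T mice, and at 8.37, 8.93, 9.46 and 9.59 in WT mice. All 6 CCAT2-GT mice lay above the WT mean and 4 above the highest WT mouse, and the highest value of all came from CCAT2-G replicate 3. DRAI+ mice averaged 9.76 ± 0.45 (SD, n = 6) and WT mice 9.09 ± 0.56 (SD, n = 4), a difference of 0.67 (SE 0.36; limma, unadjusted p = 0.0750; exact permutation test, p = 0.0667). Leaving out WT replicate 1 brought it to 0.43, and among the 13 arrays of wider spread, where 2 WT mice remain, it was 0.23. It was 0.39 without the Xist-high arrays and 0.91 without the bone and stroma rich arrays. With limma's array weights, which count arrays that vary more for less, the difference was 0.91 (adjusted p = 0.0442), with 3.14% of all genes called in that fit. Its weights were 2.38 and 4.50 for WT replicates 1 and 2, the WT mice with the least Ifitm1, and 0.51 and 0.38 for WT replicates 3 and 4.

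DRAI- mice were higher than WT mice by 0.48 for Ifitm1 (SE 0.34; limma, unadjusted p = 0.171), and by 0.24 without WT replicate 1. The difference was 0.23 among the 13 arrays of wider spread, 0.53 without the Xist-high arrays and 0.65 without the bone and stroma rich arrays. DRAI+ mice were higher than DRAI- mice by 0.19 (SE 0.30; limma, unadjusted p = 0.530). CCAT2-T mice averaged 9.29 ± 0.25 and CCAT2-G mice 9.85 ± 0.96 (SD, n = 4 each), a difference of -0.57 (SE 0.38; limma, unadjusted p = 0.150). That value rests largely on CCAT2-G replicate 3, without which it was -0.16.

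Ifitm6 was nearly level across the groups, with its extremes in single mice. It was at 11.55, 11.87 and 12.53 (lowest, median and highest) in CCAT2-GT mice. The CCAT2-G mice had 11.88, 11.73, 12.57 and 11.74, the CCAT2-T mice 11.83, 12.13, 11.02 and 11.80, and the WT mice 11.75, 11.78, 11.93 and 11.87. The 4 WT mice spanned the least, with an SD of 0.08, and lay inside the range of every other group. DRAI+ mice were higher than WT mice by 0.08 (SE 0.22), DRAI- mice by 0.00331 (SE 0.21), and CCAT2-T mice differed from CCAT2-G mice by -0.28 (SE 0.24).

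Ifitm5, the osteoblast member, averaged 5.10 over the arrays and was even across the groups. Its levels ran from 4.81 to 5.31 in CCAT2-GT mice, from 4.93 to 5.52 in CCAT2-G mice, from 4.99 to 5.42 in CCAT2-T mice and from 4.86 to 5.23 in WT mice. All groups overlapped, and the difference between DRAI+ and WT mice was 0.06 (SE 0.13; limma, unadjusted p = 0.663). Over the 18 arrays its correlation with the mean of 6 osteoblast markers was 0.18. Among the 6 it was 0.58 (rho 0.48) with Alpl, the alkaline phosphatase of mineralising cells, and 0.04 to 0.27 with the others. Ibsp, a bone sialoprotein gene, ranged from 2.69 to 8.78 among the mice and correlated at 0.17. Fkbp11, its binding partner in osteoblasts, differed by -0.05 (SE 0.11) between DRAI+ and WT mice.

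**Figure D1:**
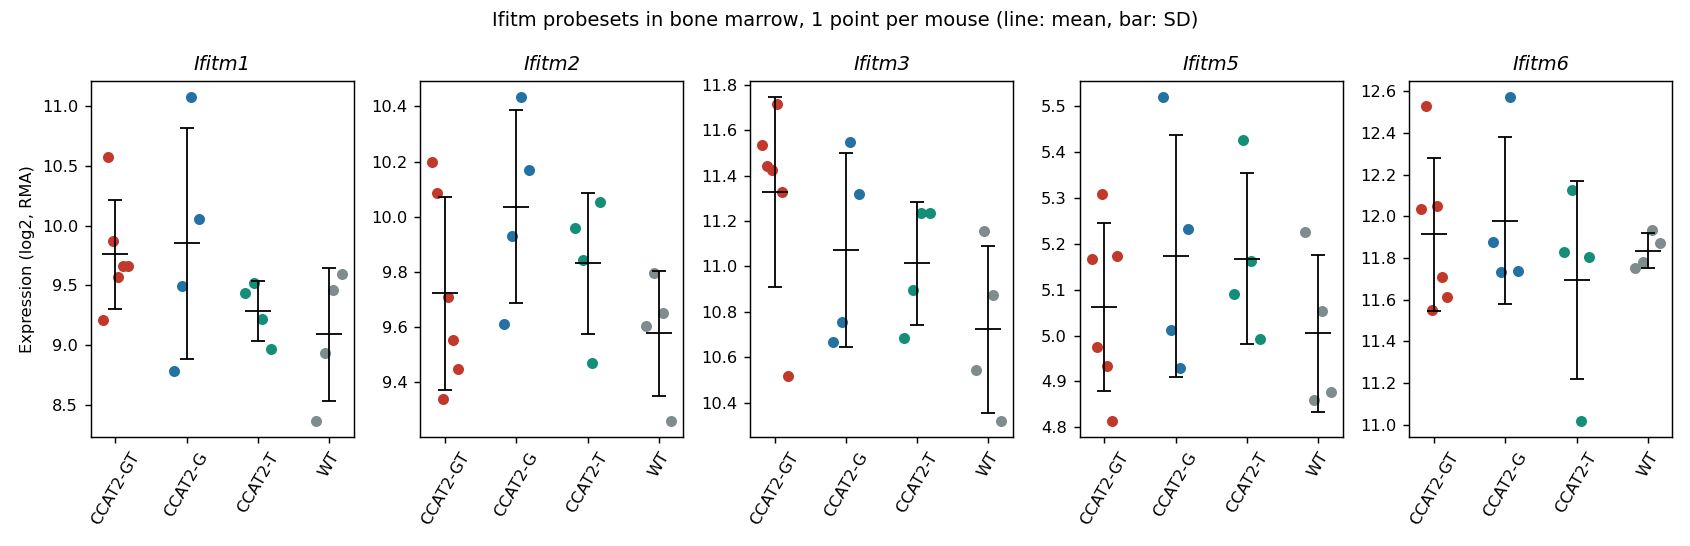
Log2 expression (vertical axis, RMA) of the 5 Ifitm probesets, 1 point per mouse, for CCAT2-GT, CCAT2-G, CCAT2-T and WT mice (horizontal axis); lines are means and bars SD, and each panel has its own scale. Ifitm3 was above 11.3 in 5 of 6 CCAT2-GT mice with replicate 6 at 10.52, and Ifitm1 peaked at 11.07 in CCAT2-G replicate 3.

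Across the family, limma called 0 of 5 members in DRAI+ against WT mice at an adjusted p under 0.05, where 0% of all 14505 genes were called. At an unadjusted p under 0.05 it was 1 member, Ifitm3, against 2.63% of all genes. No member had groups without overlap, against 0.751% of all genes. All 5 members were higher in DRAI+ mice, with a median difference of 0.15, while 49.5% of all genes were higher, with a median of -0.00171.

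In DRAI- against WT mice limma called 0 of 5 members, where 0% of all genes were called. At an unadjusted p under 0.05 it was 0 members against 1.36% of all genes, and 0 members had groups without overlap against 0.062% of all genes. The 5 members were again higher, with a median of 0.32, beside 50.2% of all genes. Both comparisons use the same 4 WT mice, so their directions are not separate observations.

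In DRAI+ against DRAI- mice the counts were 0 of 5 members called by limma (0% of all genes), 0 at an unadjusted p under 0.05 (9.57%) and 0 without overlap (0.0965%). Ifitm1, Ifitm3 and Ifitm6 were higher in DRAI+ mice and Ifitm2 and Ifitm5 lower, each within the spread between mice. In CCAT2-T against CCAT2-G mice they were 0 called by limma (0%), 0 at an unadjusted p under 0.05 (6.29%) and 0 without overlap (2.29%). All 5 members had lower means in CCAT2-T mice, by 0.01 to 0.57, with confidence intervals that include 0.

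**Figure D2:**
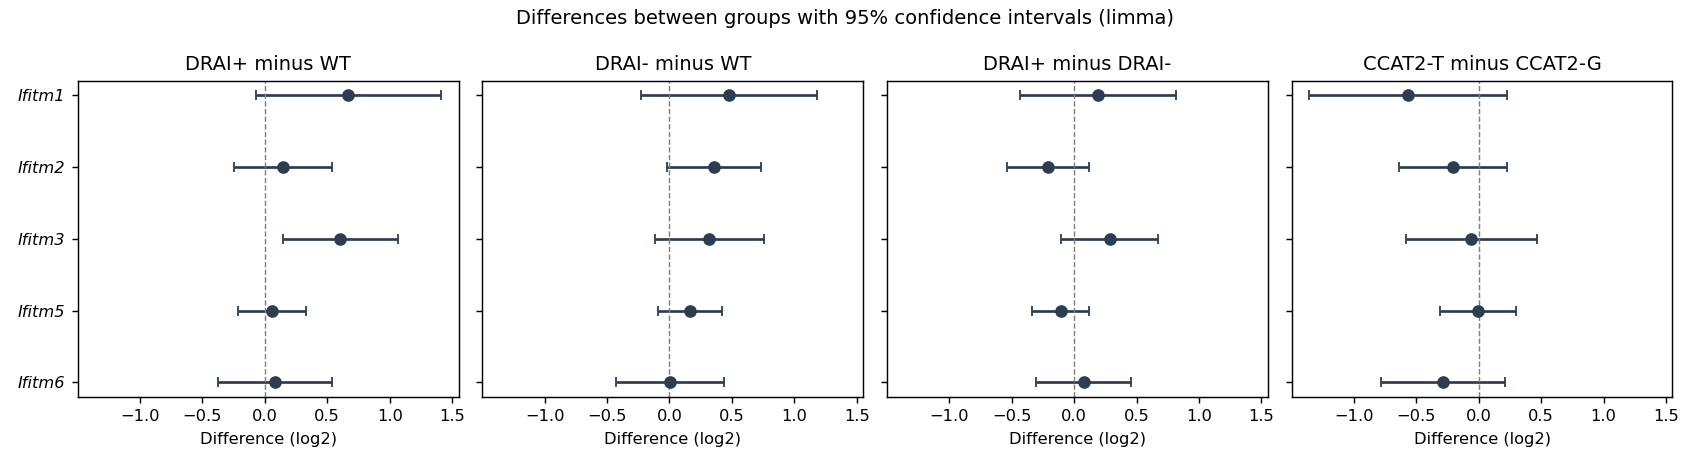
Differences in log2 expression (horizontal axis) of the 5 Ifitm genes in 4 comparisons; points are limma estimates and bars 95% confidence intervals. Ifitm3 in DRAI+ minus WT is the only interval that leaves out 0, from 0.14 to 1.07.

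The genes lie on mouse chromosome 7 in the order Ifitm5, Ifitm2, Ifitm1, Ifitm3 and Ifitm6, by the RefSeq annotation. A pseudogene and a long non-coding RNA gene, neither of them tested, lie between Ifitm1 and Ifitm3. Between DRAI+ and WT mice the neighbours on one side, Nlrp6, an inflammasome sensor, and Pgghg, a glucosidase, differed by 0.20 (SE 0.13) and -0.01 (SE 0.12). On the other side B4galnt4, a glycosyltransferase, differed by -0.03 (SE 0.11) and Pkp3, a desmosome component, by -0.01 (SE 0.14). The larger values for Ifitm1 and Ifitm3 therefore stood between genes with small ones, and whether members and neighbours differ from each other was not tested.

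**Figure D3:**
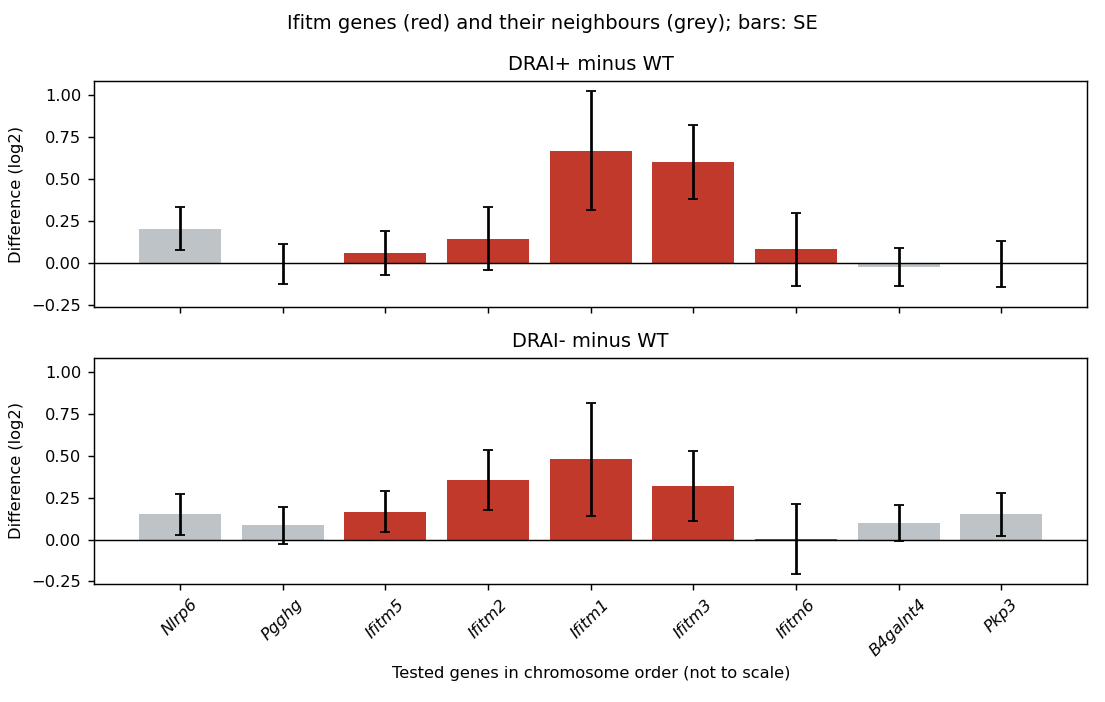
Differences in log2 expression (vertical axis) of the Ifitm genes (red) and the tested genes beside them (grey) in chromosome order, for DRAI+ minus WT and DRAI- minus WT; bars are SE. In DRAI+ minus WT, Ifitm1 (0.67) and Ifitm3 (0.60) stand above neighbours that lie between -0.03 and 0.20.

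Of the family, Ifitm3 had the highest correlation with the interferon response from mouse to mouse. Its correlation over the 18 arrays with the mean level of 33 interferon-stimulated genes outside the family was 0.82 (Spearman's rho 0.82), and 0.76 after each genotype's mean was taken off. It was 0.80 among the 13 arrays of wider spread and 0.81 without the 2 mice farthest from the list's median. Of the 33 genes, 31 correlated positively with Ifitm3 and 22 above 0.5, beside 6.65% of all genes above 0.5. The points share array normalisation and cell makeup, and these values are descriptions. Each of the 33 genes set against the mean of the rest had a median correlation of 0.71, and 8 of them exceeded that of Ifitm3.

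The mice at the ends show the same pattern. The interferon-stimulated mean was highest in CCAT2-GT replicates 3 and 4, at 7.61 in both, where Ifitm3 was at 11.42 and 11.72. It was lowest in CCAT2-GT replicate 6 and WT replicate 4, at 6.53 and 6.45, where Ifitm3 was at 10.52 and 10.32. The 3 arrays richest in bone and stroma genes are CCAT2-GT replicates 4 and 6 and WT replicate 4. The part of tissue makeup in these values was not tested.

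The other members had lower correlations with the interferon-stimulated mean: 0.25 for Ifitm1, 0.06 for Ifitm2, -0.07 for Ifitm6 and -0.15 for Ifitm5. For Ifitm2 it was 0.41 without the 2 mice farthest from the list's median, CCAT2-GT replicates 3 and 4. Of the 33 genes, 5 correlated above 0.5 with Ifitm1 and 0 with each of Ifitm2, Ifitm5 and Ifitm6. The start region of Ifitm2 holds the same 10 letters as that of Ifitm3, and the correlations of the members with this list were not tested against each other.

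**Figure D4:**
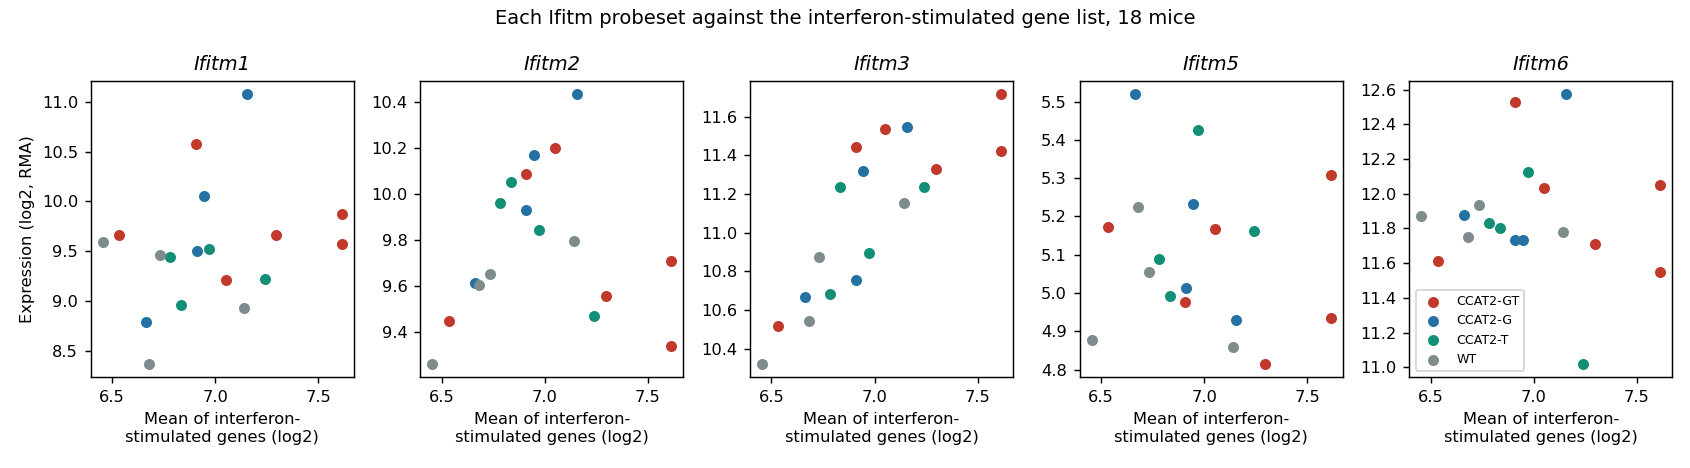
Log2 expression of each Ifitm probeset (vertical axis) against the mean log2 level of 33 interferon-stimulated genes (horizontal axis), 1 point per mouse, coloured by group. The points of Ifitm3 run along a diagonal (r = 0.82), and those of Ifitm2 do not (r = 0.06).

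The interferon pathway itself stood as follows between DRAI+ and WT mice. Of its 19 tested ligand, receptor and signalling genes, 15 were higher and 4 lower, with a median of 0.05, and limma called 0 of them (2 at an unadjusted p under 0.05, beside 2.63% of all genes). Socs3, which blocks cytokine receptors in feedback, was higher by 1.08 (SE 0.44), Usp18, which damps the interferon receptor, by 0.78 (SE 0.35) and Irf9 by 0.34 (SE 0.17). Irf7, which amplifies interferon production, was higher by 0.44 (SE 0.31).

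Of the 33 interferon-stimulated genes, 30 were higher in DRAI+ than in WT mice and 3 lower, with a median of 0.41, beside 49.5% of all genes higher. Limma called 0 of them (12 at an unadjusted p under 0.05, beside 2.63% of all genes). The 33 genes vary together, with a median correlation of 0.71 of each with the rest, so they are not separate observations. Their mean level overlapped between groups, at 6.53 to 7.61 in DRAI+ mice, 6.66 to 7.24 in DRAI- mice and 6.45 to 7.14 in WT mice. Parp12, an ADP-ribosyltransferase, was higher by 0.76 (SE 0.20), Oas1a, which makes the activator of RNase L, by 1.23 (SE 0.35) and Ifi204, a DNA sensor, by 0.86 (SE 0.26). In DRAI- against WT mice 25 of the 33 were higher, with a median of 0.19 and 0 called by limma (1 at an unadjusted p under 0.05, beside 1.36% of all genes). In DRAI+ against DRAI- mice 26 of the 33 were higher, beside 48.3% of all genes, with a median of 0.18 and 0 called by limma (6 at an unadjusted p under 0.05, beside 9.57% of all genes). There Ifi204 was higher by 0.74 (SE 0.22), Parp12 by 0.51 (SE 0.17) and Slfn5, a Schlafen family member, by 0.66 (SE 0.25). Of the 19 ligand, receptor and signalling genes in the same comparison 12 were higher and 7 lower, with a median of 0.05. Limma called 0 of them (1 at an unadjusted p under 0.05, beside 9.57% of all genes). Those of smallest p were the receptor chains Ifnar2 and Ifngr1, higher by 0.35 (SE 0.14) and 0.29 (SE 0.15), and the transcription factor Irf3, which differed by -0.13 (SE 0.08).

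Genes of proteins that bind or modify family members, or belong to the B-cell surface complex, were mixed. Of 13 such genes tested 9 were higher and 4 lower in DRAI+ than in WT mice, with a median of 0.07. Limma called 0 (0 at an unadjusted p under 0.05, beside 2.63% of all genes). Cr2, the complement receptor of B cells, differed by -0.85 (SE 0.47), Zmpste24, a membrane protease, by -0.29 (SE 0.18) and the kinase Fyn by 0.29 (SE 0.20). Zdhhc20, which attaches palmitate to Ifitm3, differed by 0.07 (SE 0.27) and the tetraspanin Cd81 by 0.01 (SE 0.24). Against DRAI- mice 9 of the 13 were higher and 4 lower, with a median of 0.11. Limma called 0 there (3 at an unadjusted p under 0.05, beside 9.57% of all genes). The genes of smallest p were the ubiquitin ligase Nedd4, higher by 0.38 (SE 0.12), the tetraspanin Cd9, higher by 0.57 (SE 0.22), and Cr2, which differed by -1.09 (SE 0.39).

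Cell type markers moved with some members. Ifitm1 correlated at 0.65 with the mean of 11 monocyte and macrophage markers and at -0.63 with that of 9 B-cell markers (0.72 and -0.37 without the 2 mice farthest from each median). The 2 mice with the most Ifitm1, CCAT2-G replicate 3 and CCAT2-GT replicate 2, had the lowest B-cell means, at 5.57 and 5.09, while the highest in any mouse was 8.52. All 9 B-cell markers had lower means in DRAI+ mice than in WT mice, by a median difference of -1.38, beside 49.5% of all genes higher. Limma called 0 of them (2 at an unadjusted p under 0.05, beside 2.63% of all genes). The B-cell mean ran from 5.09 to 7.25 in DRAI+ mice and from 5.57 to 8.52 in DRAI- mice. In WT mice it ran from 6.41 to 8.44. WT replicates 1 and 2, on narrow arrays, had 8.44 and 8.32, and WT replicates 3 and 4 had 6.81 and 6.41. No DRAI+ mouse is on a narrow array. The monocyte mean ran from 8.22 to 8.60 in DRAI+ mice, from 7.41 to 8.63 in DRAI- mice and from 7.68 to 8.19 in WT mice. Their part in the Ifitm1 difference was not tested.

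Ifitm3 correlated at -0.75 with the mean of 9 erythroid markers and at 0.56 with that of 13 neutrophil markers. Of the 9 erythroid markers 0 were higher in DRAI+ than in WT mice, beside 49.5% of all genes, with a median of -0.30. In DRAI- against WT mice 0 of the 9 were higher, beside 50.2% of all genes, with a median of -0.21. The erythroid mean ran from 9.73 to 10.48 in DRAI+ mice, from 9.65 to 10.73 in DRAI- mice and from 10.32 to 10.54 in WT mice. The part of erythroid content in the Ifitm3 difference was not tested. Ifitm6 correlated at 0.54 with the neutrophil mean and at -0.58 with that of 8 T and NK cell markers. Its highest single marker was Mmp8, the neutrophil collagenase, at 0.71. Ifitm2 correlated at 0.41 (rho 0.31) with the neutrophil mean, and at 0.69 after the genotype means were taken off. Without the 2 mice whose neutrophil means lay farthest from the median it was 0.09. Ifitm5 correlated at 0.61 with the T and NK cell mean.

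**Figure D5:**
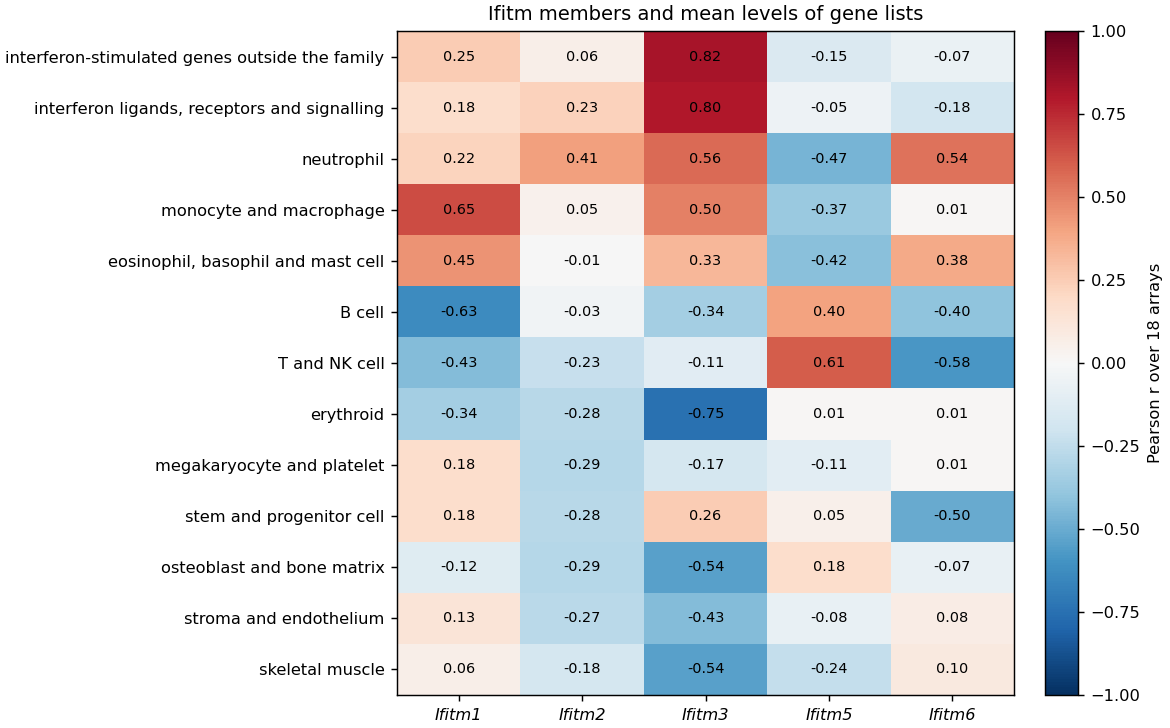
Pearson correlation over 18 arrays (colour and printed value) of each Ifitm member (columns) with the mean log2 level of 13 gene lists (rows). Ifitm3 has the strongest values, 0.82 and 0.80 with the interferon lists and -0.75 with erythroid markers, and Ifitm1 stands at 0.65 with monocyte and -0.63 with B-cell markers.

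The closest pair over the 18 arrays was Ifitm2 and Ifitm6, at r = 0.61 (rho 0.56), which places Ifitm6 at rank 62 of 14504 genes by likeness to Ifitm2. Without the 2 mice farthest from the median of the first gene named in a pair, here Ifitm2, it was 0.55. Ifitm2 and Ifitm3 stood at 0.47 (rho 0.50), at 0.25 without the 2 farthest mice and at 0.72 without the Xist-high arrays. Ifitm1 and Ifitm3 stood at 0.44 (rho 0.42), and at 0.22 without the 2 farthest mice. Ifitm1 and Ifitm6 stood at 0.54 with a rho of 0.11, and at 0.35 without the 2 farthest mice. Ifitm5 was at -0.12 to -0.28 with each other member.

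The genes most like each member over the 18 arrays differed from one member to the next. For Ifitm3 they were Nagpa (r = 0.91), which finishes the mannose 6-phosphate tag of lysosomal enzymes, Irf9 (0.89) and Oas1a (0.87). For Ifitm1 they were Zfyve16 (0.87), an endosomal protein, Il13ra1 (0.85), a chain of the interleukin-13 receptor, and Cd244a (0.84), a receptor of NK and myeloid cells. For Ifitm2 they were Ptges2 (0.79), Gng2 (0.76), a G-protein subunit, and Cry1 (0.74), a repressor of the circadian clock. For Ifitm6 they were Smg8 (0.89), a factor of nonsense-mediated decay, Mettl9 (0.89), a methyltransferase, and Orm1 (0.81), an acute-phase protein. For Ifitm5 they were Izumo1r (0.76), Ccser2 (0.75) and Dll1 (0.75), a Notch ligand. With genotype means taken off the leading genes were Pcsk7, Borcs8 and Plod3 for Ifitm3 (0.88 to 0.90), Sco1, Il13ra1 and Tmem209 for Ifitm1 (0.86 to 0.89), Tmem50b, Cpne3 and Hacd2 for Ifitm2 (0.82 to 0.88), Smg8, Mettl9 and Zdhhc3 for Ifitm6 (0.88 to 0.91) and Nudt16l2, Tmem86b and Fbxo46 for Ifitm5 (0.81 to 0.83).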

How the data were processed

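The authors deposited log2 expression values of 45101 probesets on 18 arrays, and per the submitters' processing notes these come from RMA, which corrects background, normalizes between arrays and summarises the probes of a set. The sources used here name neither its version nor the probe definition file, and the log2 scale was read from the values, which run from 1.56 to 14.2. Arrays give no read depth, so their number limits the precision. In the platform annotation 34958 probesets list 1 gene symbol, 932 several and 9211 none, and genes were taken from the first kind. Each gene was represented by its brightest probeset, and genes with a mean below the 30th percentile of probeset means (3.30) were left out. The deposited values were otherwise used as they stand.

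A linear model with 3 groups (WT, DRAI-, DRAI+), or 4 for the alleles, was fitted to the 18 arrays by lmFit and eBayes (trend on) of limma 3.58.1, under R 4.3.3. A difference is the first group named minus the second, in log2 units. Benjamini-Hochberg adjustment ran over 14505 genes at a threshold of 0.05, and the procedure was tested on simulated data. The simulated differences were larger than any of the members here, so the check does not show how often differences of these sizes would be called. Single members were also compared with exact permutation tests over mice. The labels call the samples biological replicates and do not say whether mice shared a litter or day. Deviations from the group means correlated at -0.36 to 0.67 (mean 0.15, 24 pairs) for same-numbered samples of different groups and at -0.63 to 0.60 (mean -0.03, 96 pairs) for others. Since not every same-numbered pair exceeded 0.1, the numbers were not taken to pair the samples, and a replicate block was fitted as an alternative. The 5 narrow arrays are all replicates 1 or 2, and whether the numbers follow an order of processing was not tested. No 2 arrays held identical values.

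The members and all gene lists were chosen with earlier results of these data known, as were the sets of arrays left out in alternatives. Of 71 pathway entries 67 matched a gene and 65 were tested, and of 117 markers 103 matched and 98 were tested. Rigi was matched through its older symbol Ddx58. Genes named beside the members were the 3 of smallest p per pathway list in DRAI+ minus WT and in DRAI+ minus DRAI-, the 3 of highest correlation with each member before and after genotype means were removed, the neighbours on the chromosome, and Cd81, Fkbp11, Irf7 and Zdhhc20 whatever their value. Alpl, Ibsp and Mmp8 were named from the marker lists after their values were seen. Further genes under the rule are not reported here. Predicted genes were left out. Alternatives covered normalization, the filter, the choice of probeset, the variance model, the arrays fitted, array spread, sex, tissue makeup, a replicate block and leaving out each mouse.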

Additional observations from a re-analysis of the deposited data

Results flagged for a closer look

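Of 20 groups checked, 5 members in 4 groups, 1 held a sample far from the others. Ifitm3 was at 10.52 in CCAT2-GT replicate 6, below the 5 other CCAT2-GT mice by 0.678 of the group's whole range. Chance flags about 1 in 20 groups, so 1 flag is the number that chance gives. Without that mouse the difference between DRAI+ and WT mice was 0.77.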

How the results depend on the processing

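The higher Ifitm3 in DRAI+ than in WT mice kept its direction in all 34 alternatives, at 0.46 to 0.81. The unadjusted limma p was under 0.05 in 30, and the smallest adjusted p was 0.114. Part of the alternatives cannot change a difference between DRAI+ and WT means. They are those of the filter, the eBayes settings, the choice of probeset, the fit of only the compared groups and the leaving out of a DRAI- mouse. Their unchanged direction is no separate evidence, for Ifitm3 or the other members. The replicate block gave 0.81, the 5 narrow arrays as a block 0.49 and the fit without the Xist-high arrays 0.53. Leaving out 1 mouse gave 0.47 (without WT replicate 4) to 0.77. Ifitm1 in that comparison kept its direction at 0.23 to 0.91, with 0.35 for the narrow arrays as a block, 0.39 without the Xist-high arrays and 0.43 to 0.84 without 1 mouse. Array weights raised the count of members called from 0 to 1, Ifitm1, at an adjusted p of 0.0442, in a fit that weights WT replicates 1 and 2 above WT replicates 3 and 4. No other alternative called a member, the replicate block included.

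Signs turned in the cases that follow, and the causes were not tested. With array weights Ifitm2 in DRAI+ minus WT was -0.0456, Ifitm6 in DRAI+ minus DRAI- -0.0107, and Ifitm5 and Ifitm6 in CCAT2-T minus CCAT2-G 0.13 and 0.0656. Among the wider arrays Ifitm6 in DRAI- minus WT was -0.13, Ifitm1 in DRAI+ minus DRAI- -0.00192, and Ifitm3 and Ifitm5 in CCAT2-T minus CCAT2-G 0.0294 and 0.0201. Ifitm1 in DRAI+ minus DRAI- was -0.0495 when the narrow arrays formed a block and -0.14 without the Xist-high arrays, where Ifitm6 was -0.0539. With Xist as a covariate Ifitm5 in CCAT2-T minus CCAT2-G was 0.00479. Leaving out 1 mouse gave Ifitm6 -0.0420 to 0.15 in DRAI+ minus WT, -0.10 to 0.12 in DRAI- minus WT and -0.0453 to 0.18 in DRAI+ minus DRAI-, and in CCAT2-T minus CCAT2-G Ifitm3 -0.19 to 0.10 and Ifitm5 -0.0913 to 0.11. The number of arrays limits the precision: the confidence interval of Ifitm1 in DRAI+ minus WT ran from -0.07 to 1.41.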

Other observations

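Ifitm7 and Ifitm10 belong to the family but not to the 5 members. Ifitm7 averaged 3.33 over the arrays, just above the filter, and was higher by 0.13 (SE 0.08) in DRAI+ than in WT mice. Ifitm10 averaged 4.88 and differed by -0.28 (SE 0.15; limma, unadjusted p = 0.0825), the opposite direction to the 5 members. Within the 5 arrays of narrow spread, 3 DRAI- mice and 2 WT mice averaged 10.75 and 10.85 for Ifitm3, a difference of -0.10, and 9.25 and 8.65 for Ifitm1, a difference of 0.60. No test was made with so few mice.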
